A study of Mus musculus with 16 samples.

Results

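B lineage genes were followed through sorted cells of mouse olfactory mucosa. The set held 9 genes chosen by name, of which 8 had a named feature among the 19505 genes measured: the mature-type genes Cd79a, Cd79b, Ms4a1, Pax5 and Cd22 and the precursor genes Vpreb1, Vpreb3 and Igll1. Rag1 was not analysed here. The animals were C57BL/6 mice of the S100a5-tauGFP reporter line, in which green fluorescent protein is made from the S100a5 gene, a calcium-binding protein gene that follows the activity of olfactory sensory neurons. All 24 mice, males and females aged 7 to 12 weeks, spent 40 h one to a chamber in clean air flowing at 3.1 L/min. From 26 h on, mice got 10 s pulses every 20 min, of filtered air in the vehicle group and of whiskey lactone, an oak-wood aroma compound, in the odor group. Mucosa of 3 mice was pooled, dissociated and separated by fluorescence into GFP+ and GFP- cells. There were 4 pools per treatment, and so 4 groups of 4 arrays (16 in all): odor GFP+, odor GFP-, vehicle GFP+ and vehicle GFP-. The sort selected on the reporter, and any gate on blood cells is not given in the sources used here. Samples were thus mixtures of cells, in which fewer cells of a type and less RNA per cell cannot be told apart.

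As background, B lymphocytes carry an antigen receptor whose membrane immunoglobulin signals through a dimer of Cd79a and Cd79b. Before a light chain is made, precursor B cells pair the heavy chain with a surrogate light chain built from Vpreb1 and Igll1 (lambda5), while Rag1 cuts immunoglobulin genes for V(D)J recombination. Vpreb3 is a related protein of the precursor B cell that binds chains inside the cell, Pax5 is the transcription factor that commits cells to the lineage, and Ms4a1 (CD20) and Cd22, an inhibitory coreceptor, mark its later stages. Cd79a, Cd79b and Pax5 are already on in precursors, so mature-type here means made through the mature stage, not restricted to it.

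The bases just upstream of the transcription start are shown for 4 members with different fraction differences: Cd79a, called higher in arrays titled GFP+ in both treatments, Vpreb3, called in vehicle pools, and the surrogate light chain genes Vpreb1 and Igll1, called in neither. Each run holds 250 bases, 5′ to 3′ on the strand of the gene, from RefSeq (GRCm38.p6), and capitals mark motif matches found on either strand. The Cd79a run lies at chr7:24897247-24897496 (plus strand), Vpreb3 at chr10:75948050-75948299 (plus), Vpreb1 at chr16:16869256-16869505 (minus) and Igll1 at chr16:16863986-16864235 (minus).
Cd79a: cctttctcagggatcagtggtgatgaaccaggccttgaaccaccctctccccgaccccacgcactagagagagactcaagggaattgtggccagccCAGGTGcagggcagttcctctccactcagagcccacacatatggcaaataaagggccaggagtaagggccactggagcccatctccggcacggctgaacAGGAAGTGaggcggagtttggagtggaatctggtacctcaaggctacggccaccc
Vpreb3: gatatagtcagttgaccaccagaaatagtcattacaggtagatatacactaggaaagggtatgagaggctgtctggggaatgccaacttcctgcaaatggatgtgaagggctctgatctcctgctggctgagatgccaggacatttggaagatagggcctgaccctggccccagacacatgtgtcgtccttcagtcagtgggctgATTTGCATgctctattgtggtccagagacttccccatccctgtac
Vpreb1: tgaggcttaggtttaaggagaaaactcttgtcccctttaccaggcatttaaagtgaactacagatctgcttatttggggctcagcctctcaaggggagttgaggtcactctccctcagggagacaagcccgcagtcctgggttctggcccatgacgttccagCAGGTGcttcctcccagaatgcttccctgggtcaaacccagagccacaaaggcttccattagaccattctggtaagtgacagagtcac
Igll1: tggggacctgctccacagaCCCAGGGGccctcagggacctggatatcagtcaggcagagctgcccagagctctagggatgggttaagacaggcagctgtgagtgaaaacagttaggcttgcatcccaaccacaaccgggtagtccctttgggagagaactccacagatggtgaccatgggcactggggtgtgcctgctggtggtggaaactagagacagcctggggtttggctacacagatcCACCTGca
Motifs searched were those named for early B cell factor (CCCNNGGG), E proteins (CAGGTG), octamer factors (ATTTGCAT) and ETS factors (AGGAAGTG). Counted back from the start site, Cd79a had an E-box from -154 to -149 and an ETS match from -55 to -48, and Vpreb3 had the octamer from -45 to -38. Vpreb1 had an E-box from -88 to -83. Igll1 had the early B cell factor core from -231 to -224 and an E-box on the opposite strand from -8 to -3. No match overlapped another. Promoters were matched for 7 of the 9 genes. The E-box stood in 5 of these 7 against 17.2% of 32851 promoters of the same length, the early B cell factor core in 2 against 11.8%, the octamer in 1 against 1.6% and the ETS match in 1 against 3.14%. These matches describe letters only.

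Signals were log2 values, and a value counted as background when it was at or below the median of the 5222 negative control features of its array. That median ran from 4.98 to 5.59 across arrays, and 58.0 to 66.4% of genes exceeded it. The mature olfactory neuron list was above it for 15 or 16 of 16 genes in every array. S100a5, the gene of the reporter, was lower in arrays titled GFP+ (log2 difference -1.23 ± 0.09, SE, in vehicle and -1.34 ± 0.09 in odor pools; limma, adjusted p = 4.78e-07 and 2.07e-07). In all 16 samples the title and the cell type label contradict each other about the fraction. Arrays are therefore called titled GFP+ or titled GFP-, and every fraction difference given here changes sign under the cell type label. That includes S100a5, which under the cell type label is higher in the GFP+ fraction. Which of the labels is right was not tested.

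Across the 4 groups, values above background of the 8 members lay almost wholly in arrays titled GFP+. Of 32 member values per group (8 genes in 4 arrays), the control median was exceeded by 19 in the odor group and 15 in the vehicle group titled GFP+. Among arrays titled GFP- it was exceeded by 1 value of the odor group and 0 of the vehicle group. Of all genes, 63.5 to 66.4% exceeded it in odor and 60.5 to 65.7% in vehicle arrays titled GFP+. In arrays titled GFP- these shares were 59.9 to 62.6% and 58.0 to 59.8%. The limit itself ran from 4.98 to 5.24 in odor arrays titled GFP+ and from 5.14 to 5.42 in those titled GFP-. Igll1, which lay close to it, gave 4 of the 19 and 2 of the 15 values. Cd79a was the only member above background in all 8 arrays titled GFP+. Most of these signals were dim. At the 95th percentile of the negative controls, 1 value remained in each group titled GFP+, in both cases Cd79a in pool 1.

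**Figure D1:**
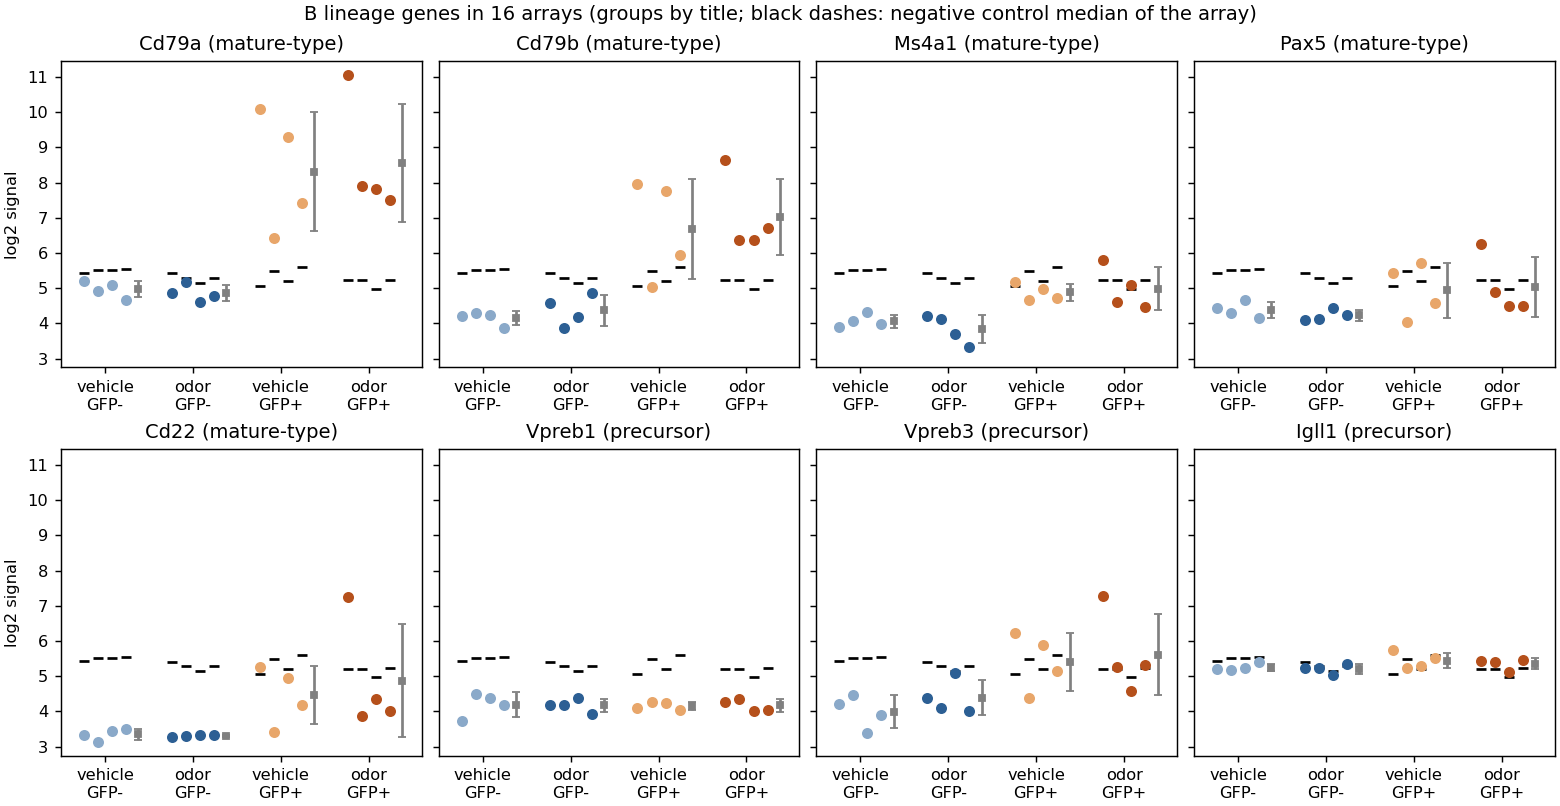
Log2 signal (y axis) of the 8 B lineage genes in the 4 groups of 4 arrays (x axis), with dots for replicates 1 to 4 from left to right, grey squares and bars for the mean ± SD and black dashes for the negative control median of each array. Cd79a stands above the dashes in all 8 arrays titled GFP+, whereas all 16 values of Vpreb1 lie below them.

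The antigen receptor subunits Cd79a and Cd79b had the largest fraction differences of the set. In odor pools 1 to 4, Cd79a measured 11.06, 7.89, 7.81 and 7.50 on the log2 scale in the fraction titled GFP+ against 4.87, 5.17, 4.62 and 4.78 in that titled GFP-. In vehicle pools 1 to 4 it measured 10.10, 6.43, 9.29 and 7.41 against 5.20, 4.93, 5.09 and 4.66. The fractions did not overlap, and all 8 arrays titled GFP- were at background. Cd79a rose in arrays titled GFP+ by 3.71 ± 0.57 on the log2 scale in odor pools (SE, n = 4 pools; limma, adjusted p = 0.000277), from 4.86 ± 0.23 to 8.56 ± 1.67 (mean ± SD). In vehicle pools the difference was 3.34 ± 0.57 (adjusted p = 0.000724), from 4.97 ± 0.24 to 8.31 ± 1.68. Because the lower fraction gave only a background signal, the fold is a bound against the control median of those arrays: at least 9.69-fold higher in odor and at least 6.95-fold higher in vehicle pools. The bound was 5.61-fold without odor pool 1, 4.51-fold without vehicle pool 1 and 10.8-fold without vehicle pool 2.

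Cd79b, the partner chain, followed the same order. Its odor signals were 8.64, 6.38, 6.38 and 6.72 for GFP+ titles and 4.58, 3.87, 4.17 and 4.85 for GFP- titles. Its vehicle signals were 7.96, 5.04, 7.76 and 5.93 against 4.22, 4.29, 4.23 and 3.85. The fractions again did not overlap, and the value of 5.04, from vehicle pool 2, was the only one of Cd79b titled GFP+ at background. The rise was 2.66 ± 0.44 in odor pools (limma, adjusted p = 0.000534; at least 3.34-fold) and 2.52 ± 0.44 in vehicle pools (adjusted p = 0.000897; at least 2.24-fold). Both receptor chains passed the threshold under all 19 alternative settings tried in each treatment.

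Ms4a1, which encodes the surface protein CD20, rose by less and near the floor. It had 5.80, 4.61, 5.09 and 4.46 in odor arrays titled GFP+, of which the second and the fourth were at background, against 4.21, 4.11, 3.71 and 3.32. In vehicle pools it had 5.18, 4.66, 4.98 and 4.73, of which only the first exceeded background, against 3.88, 4.06, 4.32 and 3.99. The fractions did not overlap in either treatment, and the fitted rise was 1.15 ± 0.20 in odor (limma, adjusted p = 0.000861) and 0.82 ± 0.20 in vehicle pools (adjusted p = 0.00968). No fold is given, since both groups lay on average at or under the control median. The vehicle call was lost without vehicle pool 1 (0.66, adjusted p = 0.0663), after centring on the median gene (adjusted p = 0.0521) or on housekeeping genes (0.158), and it turned to -0.15 (0.196) once values below background were raised to the control median, which also ended the odor call (0.046, adjusted p = 0.687).

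Cd22, a sialic acid-binding coreceptor that dampens receptor signalling, exceeded background in 1 array of each group titled GFP+. Its odor signals were 7.26, 3.88, 4.34 and 4.01 against 3.26, 3.30, 3.33 and 3.32. In vehicle pools they were 5.27, 3.43, 4.95 and 4.17 against 3.32, 3.14, 3.44 and 3.51. Only the odor fractions were free of overlap. The difference of 1.57 ± 0.46 passed in odor pools (limma, adjusted p = 0.0225) and that of 1.10 ± 0.46 did not in vehicle pools (adjusted p = 0.0979). The odor value rested on pool 1: without it the difference was 0.76 (adjusted p = 0.0832), while the vehicle difference then passed (1.10, adjusted p = 0.00531), with a spread fitted over all groups. Raising values to the control median also ended the odor call (0.38, adjusted p = 0.203). Pax5 passed in neither treatment. Its signals in arrays titled GFP+ were 6.26, 4.90, 4.49 and 4.49 in odor and 5.43, 4.04, 5.73 and 4.57 in vehicle pools, 3 of them above background, and those in arrays titled GFP- ran from 4.09 to 4.68. Its differences were 0.80 ± 0.32 (limma, adjusted p = 0.0768) and 0.55 ± 0.32 (adjusted p = 0.217), and the odor value was 0.35 without odor pool 1; with arrays centred on mature neuron genes it passed (1.08, adjusted p = 0.0337).

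Among the precursor genes, Vpreb3 had the largest fraction differences. It had 7.27, 5.26, 4.59 and 5.33 in odor arrays titled GFP+ and 4.38, 4.11, 5.09 and 4.00 in those titled GFP-. In vehicle pools it had 6.22, 4.39, 5.88 and 5.14 against 4.21, 4.46, 3.38 and 3.90. One array titled GFP+ of each treatment (odor pool 3 and vehicle pool 2) lay below its highest counterpart, so the fractions overlapped. In each treatment all 4 arrays titled GFP- were at background, as were 2 titled GFP+ in vehicle and 1 in odor pools. The log2 differences of Vpreb3 thus start from a background signal. The bound was at least 1.25-fold in odor pools, and no fold is given for vehicle pools. Vpreb3 rose by 1.42 ± 0.46 in vehicle pools (limma, adjusted p = 0.0387), whereas the odor difference of 1.22 ± 0.46 did not pass (adjusted p = 0.0683). These calls moved easily. The vehicle call was lost without vehicle pool 1 (1.22, adjusted p = 0.154), 3 (1.06, 0.182) or 4 (1.48, 0.0880) and without odor pool 2 (0.0501), as well as with housekeeping centring (0.0592), without a variance trend (0.0647) and with values raised to the control median (0.335). The odor difference was 0.66 without odor pool 1 (adjusted p = 0.343), and it passed without odor pool 3 (1.79, 0.0131), without vehicle pool 2 (0.0458) with the replicate block (0.0391), with a random pool block (0.0469) and with arrays centred on mature neuron genes (0.0375).

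The surrogate light chain genes did not pass in either treatment. Vpreb1 was at background in all 16 arrays, between 3.72 and 4.51, with differences of -0.04 ± 0.17 in vehicle (limma, adjusted p = 0.897) and -0.0044 ± 0.17 in odor pools (adjusted p = 0.988). Centring on housekeeping genes, which put the median of all genes at -0.64 and -0.63, made Vpreb1 lower (-0.53, adjusted p = 0.0273, in vehicle and -0.48, 0.0403, in odor pools). That centre itself differed between the fractions. Of 21 housekeeping genes, 6 were called higher and 1 lower in vehicle pools, and 7 higher and 0 lower in odor pools. Their differences reached 3.46 and 3.71, beside list medians of 0.05 and 0.01. Igll1 hovered at the control median in every group. It had 5.45, 5.40, 5.12 and 5.46 in odor arrays titled GFP+, all above the median of their arrays, and 5.23, 5.24, 5.02 and 5.36 in those titled GFP-, where only the last was. Yet all of these values titled GFP- exceed the control median of the array titled GFP+ from the same pool (5.22, 5.22, 4.98 and 5.24). In vehicle pools it had 5.74, 5.24, 5.30 and 5.51 against 5.20, 5.16, 5.23 and 5.39. Its differences were 0.14 ± 0.17 (limma, adjusted p = 0.558) and 0.20 ± 0.17 (adjusted p = 0.404). At this signal a low level of either gene was not detectable, since a feature at background gives only a bound.

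In counts, 4 of the 8 members were called higher in arrays titled GFP+ in vehicle pools (Cd79a, Cd79b, Ms4a1 and Vpreb3) and 4 in odor pools (Cd79a, Cd79b, Ms4a1 and Cd22), and 0 were called lower in either. Of all genes, 12.3% were called higher and 13.6% lower in vehicle pools, and 12.8% and 14.7% in odor pools. Without vehicle pool 1 the vehicle count of members was 2. The split of all genes moved with scaling: 2406 higher and 2658 lower in vehicle pools became 1818 and 12539 once arrays were centred on the median gene, 1590 and 14202 with housekeeping genes as the centre, 2792 and 1411 by cyclic loess and 4165 and 702 with mature neuron genes as the centre. In odor pools 2502 and 2860 became, in the same order, 1902 and 12906, 1731 and 13991, 2922 and 1395, and 3704 and 839. Median centring and housekeeping centring put the median of all genes at -0.51 and -0.64 in vehicle pools and at -0.53 and -0.63 in odor pools, and mature neuron centring at 0.16 and 0.12, so member differences under them are read against those medians. Among the 6743 genes that, like most of the members, were at background in all 8 arrays titled GFP-, 11.3% were called higher in vehicle and 12.2% in odor pools. Non-overlap of the fractions, with all 4 arrays titled GFP+ above all 4 titled GFP-, held for 3 members in vehicle pools (Cd79a, Cd79b and Ms4a1), against 11.2% of all genes. In odor pools it held for 5 (with Pax5 and Cd22), against 12% of all genes. The median difference of the members was 0.96 in vehicle and 1.18 in odor pools, beside -0.14 and -0.15 for all genes.

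**Figure D2:**
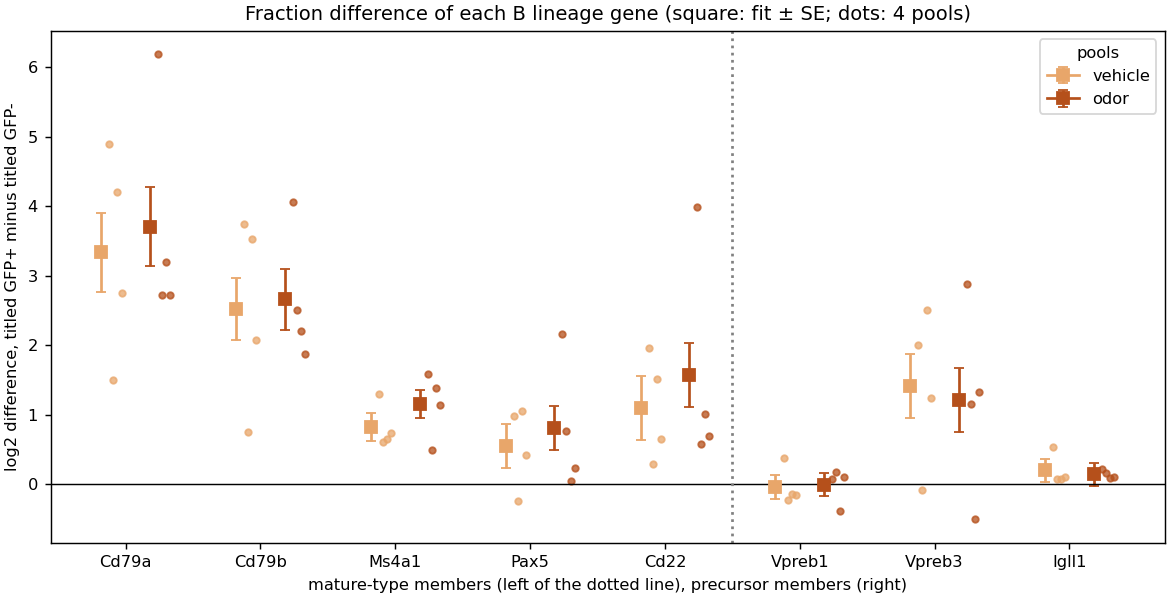
Log2 difference between arrays titled GFP+ and titled GFP- (y axis) for each B lineage gene (x axis), with squares and bars for the fit ± SE, small dots for the 4 pools and colour for treatment. The mature-type genes left of the dotted line run from 0.55 to 3.71, while the precursor genes on the right have fits from -0.04 to 1.42; Igll1 is above 0 in all 8 pools (0.07 to 0.54) and Vpreb3 in 6 of 8.

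Precursor and mature-type members were then set against each other by their fraction differences, since signals of different features cannot be compared as levels. In vehicle pools the 3 precursor genes had a median difference of 0.20 (range -0.04 to 1.42) and the 5 mature-type genes one of 1.10 (0.55 to 3.34). In odor pools the medians were 0.14 (-0.0044 to 1.22) and 1.57 (0.80 to 3.71). The precursor median was thus lower by 0.90 in vehicle and by 1.43 in odor pools. The gap taken within single pools, which is not centred on these values, had an SD over 4 pools of 0.45 and 1.41. Members are not replicates, so no test was made. The sign was the same in each of the 8 pools, where the gap ran from -3.78 in odor pool 1 to -0.59 in odor pool 2, and without odor pool 1 the odor gap was -0.89. The gap depends on how background is treated: once values below the control median were raised to it, the gap was -0.029 in vehicle and -0.33 in odor pools, as most members then had little left to differ by. Vpreb3 sat with the mature-type genes by size, and without it the gap was -1.02 and -1.5.

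Pools differed in their B lineage signal, and several members went along with Cd79a. The Cd79a fraction difference was 6.18, 2.73, 3.19 and 2.72 in odor pools 1 to 4 and 4.90, 1.50, 4.20 and 2.75 in vehicle pools 1 to 4. Cd79b had 4.06, 2.50, 2.21 and 1.87 and then 3.74, 0.75, 3.53 and 2.08, and Cd22 had 3.99, 0.58, 1.01 and 0.69 and then 1.95, 0.29, 1.51 and 0.66. Odor pool 1 and vehicle pools 1 and 3 were high for all of these genes, and vehicle pool 2 was low. Vpreb3 was highest in odor pool 1 and vehicle pool 3 (2.89 and 2.50) and below 0 in odor pool 3 and vehicle pool 2 (-0.51 and -0.08). The Igll1 differences of single pools ran only from 0.07 to 0.54, and those of Vpreb1 from -0.38 to 0.37.

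Over the 8 arrays titled GFP+, 15 genes were related to Cd79a, 7 of them members, with exact two-sided permutation tests adjusted over the 15. Cd79b (r = 0.971, adjusted p = 0.00260; rho = 0.905, adjusted p = 0.0342; exact permutation), Pax5 (r = 0.960, 0.00288; rho = 0.905, 0.0342) and Vpreb3 (r = 0.946, 0.00288; rho = 0.881, 0.0362) passed by both measures. Without the 2 arrays farthest from the Cd79a median, odor pool 1 and vehicle pool 1, their r was 0.951, 0.966 and 0.822, though 5 of the 6 Pax5 values left were at background. Cd22 passed by r only (r = 0.937, adjusted p = 0.00260; rho = 0.833, 0.0577; exact permutation). Without these arrays all 6 Cd22 values left were at background, so its r there (0.926) rests on unmeasured levels. Ms4a1 (r = 0.857, adjusted p = 0.0167; rho = 0.690, 0.130; exact permutation) fell to 0.504 without these arrays, so that its relation rested on them. Igll1 (r = 0.458, adjusted p = 0.305; rho = 0.238, 0.624) and Vpreb1 (r = 0.142, 0.743; rho = 0.190, 0.665) did not pass the exact permutation test. With each treatment's mean subtracted, r was 0.973 for Cd79b, 0.960 for Pax5 and 0.946 for Vpreb3. All values of an array share its RNA and its scaling. The permutations, here and for the genes of other blood cells, took the 8 arrays as exchangeable. Same-numbered odor and vehicle arrays titled GFP+ deviated together (0.0787 to 0.410, 3 of 4 pairs over 0.1), so these p may be too small. Among the 4 odor and the 4 vehicle arrays related here, background values numbered 3 and 2 for Pax5, 1 and 2 for Vpreb3, and 0 and 1 for Cd79b. For Cd22 they numbered 3 and 3 and for Ms4a1 2 and 3. The r, rho and p of these genes over all 8 arrays thus rest in part on unmeasured levels, least so for Cd79b.

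Genes of other blood cells varied between the same pools. The neutrophil alarmin S100a9 (r = 0.762, adjusted p = 0.0590; rho = 0.786, 0.0838; exact permutation) and the T cell receptor subunit Cd3e (r = 0.740, 0.0821; rho = 0.738, 0.115) missed the threshold, and their r was 0.323 and 0.218 without odor pool 1 and vehicle pool 1. For the neutrophil granule gene Ngp r was 0.709, for the progenitor factor Myb 0.674, for the proliferation marker Mki67 0.585, for the immunoglobulin joining chain Jchain 0.529, for the cytotoxic granule gene Nkg7 0.453 and for the red cell gene Rhag 0.352. Without odor pool 1 and vehicle pool 1 these r were 0.428, 0.676, 0.575, 0.175, 0.487 and 0.559. Their adjusted p over all 8 arrays were 0.0863, 0.118, 0.187, 0.244, 0.305 and 0.418, and their rho were 0.619, 0.619, 0.667, 0.690, 0.476 and 0.524 with adjusted p of 0.157, 0.157, 0.138, 0.130, 0.280 and 0.246 (exact permutation). A difference between these coefficients and those of the members was not tested.

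**Figure D3:**
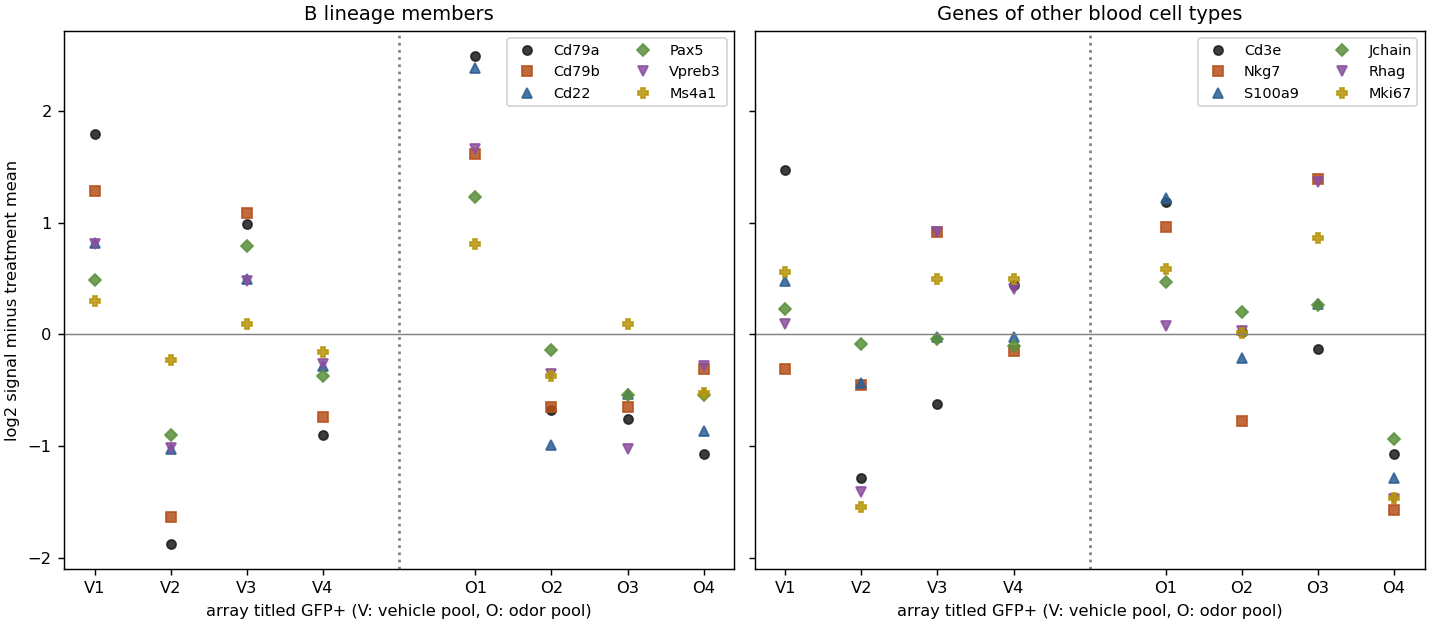
Log2 signal minus the mean of its treatment (y axis) in the 8 arrays titled GFP+ (x axis, V for vehicle and O for odor pools), for 6 B lineage genes on the left and for 6 genes of other blood cell types on the right. The B lineage genes stand highest in odor pool 1, where Cd79a has 11.06 and Cd22 7.26, and low in vehicle pool 2.

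Whiskey lactone did not change any member past the threshold. In arrays titled GFP+, odor minus vehicle was 0.26 ± 0.70 for Cd79a, 0.35 ± 0.55 for Cd79b, 0.42 ± 0.54 for Cd22, 0.10 ± 0.25 for Ms4a1, 0.09 ± 0.36 for Pax5, 0.20 ± 0.48 for Vpreb3, -0.09 ± 0.16 for Igll1 and 0.01 ± 0.17 for Vpreb1 (log2 ± SE; limma). In arrays titled GFP- these differences ran from -0.23 ± 0.25 (Ms4a1) to 0.41 ± 0.48 (Vpreb3). All member values in that fraction were at background, apart from 1 of Igll1 in the odor group. A change that stayed under the control median could therefore not be seen there. By limma 0 of 8 members were called in either fraction, and 0 had an unadjusted p under 0.05. For all genes the call rates were 0.00513% (titled GFP+) and 0% (titled GFP-), with 4.88% and 5.88% at an unadjusted p under 0.05. The order of the group means was odor titled GFP+, vehicle titled GFP+ and then the groups titled GFP- for all members but Igll1 and Vpreb1. Odor and vehicle means did not differ beyond their spread in either fraction. With an SE of 0.70 for Cd79a, a change had to be well above that size to pass the threshold. Smaller changes were not detectable. This order did not hold without odor pool 1, where odor minus vehicle in arrays titled GFP+ was -0.58 for Cd79a, -0.18 for Cd79b, -0.38 for Cd22, -0.17 for Ms4a1, -0.32 for Pax5 and -0.35 for Vpreb3.

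The fraction contrast itself did not differ between treatments past the threshold. Odor minus vehicle of that contrast was 0.37 ± 0.81 for Cd79a, 0.14 ± 0.63 for Cd79b, 0.47 ± 0.65 for Cd22, 0.33 ± 0.29 for Ms4a1 and -0.20 ± 0.65 for Vpreb3 (log2 ± SE; limma). Without odor pool 1 it was -0.46 for Cd79a, -0.33 for Cd79b and -0.34 for Cd22. Again 0 of 8 members passed, with 0 at an unadjusted p under 0.05, where all genes gave 0.00513% and 3.27%. The calls of Cd22 in odor pools alone and of Vpreb3 in vehicle pools alone are therefore not shown to differ between treatments.

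Wider gene lists, which include the measured members, showed which parts of a B cell programme the arrays could see. Of 13 measured pan and mature B cell markers, 7 were higher in arrays titled GFP+ and 0 lower in each treatment. The median difference was 1.10 in vehicle and 1.15 in odor pools, and 6 of 13 had no call. These 13 include the 5 mature-type members. Among the calls, Cd79a, Cd79b and Ms4a1 in both treatments and Cd22 in odor pools are those already given above. Beside the receptor chains, Tnfrsf13c, the receptor for the survival factor BAFF, rose by 1.91 ± 0.49 and 2.19 ± 0.49 (vehicle and odor; limma, adjusted p = 0.0115 and 0.00464). Cd72, a coreceptor, rose by 2.36 ± 0.44 and 1.71 ± 0.44 (adjusted p = 0.00145 and 0.0114). The summed linear signal of the list, members included, was 436 to 569 over the arrays titled GFP- and 692 to 5472 over those titled GFP+. In arrays titled GFP-, 3 to 4 of the 13 markers exceeded background in odor and 2 to 4 in vehicle pools. Tnfrsf13c was above background in every array. So was Fcer2a, which was not called: its means titled GFP+ and GFP- were 7.49 and 7.54 in vehicle and 7.22 and 7.33 in odor pools. Of 10 measured B precursor markers, Vpreb1, Vpreb3 and Igll1 among them, 4 (Vpreb3 included) were higher in vehicle and 5 in odor pools (medians 0.33 and 0.75). Those called in both were Il7r, the interleukin-7 receptor (3.47 ± 0.36 and 4.26 ± 0.36), Erg, an ETS factor (3.15 ± 0.23 and 3.10 ± 0.23), and Cd93 (2.35 ± 0.36 and 2.19 ± 0.36). Erg and Cd93 were at background in all 8 arrays titled GFP-, which leaves bounds of at least 3.05- and 4.12-fold for Erg and of at least 1.07- and 1.15-fold for Cd93. Cd93 was also at background in 2 of 4 arrays titled GFP+ in each treatment, so its bounds rest in part on unmeasured levels. The log2 differences of Spib, Prkcb, Rhag, Mki67, Nkg7, Cd3e and Ccr9, given next, also start from a background signal in all 8 arrays titled GFP-. These genes are also made outside the B lineage, Il7r in T and innate lymphoid cells and Erg and Cd93 in progenitor and endothelial cells.

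Genes of B cell receptor signalling, many of which myeloid cells share, differed between the fractions. All 12 measured genes of B cell receptor signalling were higher in odor and 11 in vehicle pools (medians 3.38 and 3.57). Fcgr2b, an inhibitory Fc receptor, rose by 4.71 ± 0.27 in vehicle and 4.67 ± 0.27 in odor pools, the kinase gene Prkcb by 4.22 ± 0.29 and 4.88 ± 0.29, the exchange factor gene Vav1 by 4.09 ± 0.27 and 4.67 ± 0.27 and the phosphatase gene Inpp5d by 4.23 ± 0.19 and 4.49 ± 0.19 (limma, adjusted p from 1.91e-09 to 1.94e-07). Of 13 B cell transcription factors 5 were higher in vehicle, and 6 higher and 2 lower in odor pools (medians 0.51 and 0.55). Spi1, the myeloid and B cell factor PU.1, rose by 7.55 ± 0.22 and 7.51 ± 0.22, Ikzf1 by 3.55 ± 0.32 and 5.03 ± 0.32, Spib by 3.42 ± 0.32 and 4.11 ± 0.32, and the B cell coactivator gene Pou2af1 by 1.14 ± 0.33 and 1.34 ± 0.33 (limma, adjusted p of 0.0216 or less). Pou2af1 was at background in all 8 vehicle arrays and in 7 of 8 odor arrays, so its difference has no fold. Of 10 genes of V(D)J recombination and end joining, 1 was higher and 2 lower in vehicle and 2 were higher and 2 lower in odor pools. Called in both were Hmgb2, a chromatin protein gene (1.18 ± 0.15 and 1.51 ± 0.15), and Xrcc5, which encodes Ku80 (-0.40 ± 0.13 and -0.41 ± 0.13).

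Markers of other blood cells moved with the B lineage genes. All 11 neutrophil and granule precursor markers were higher in both treatments (medians 8.10 in vehicle and 7.88 in odor pools), led by Retnlg (8.94 ± 0.16 and 9.06 ± 0.16), Mmp8 (8.93 ± 0.18 and 8.82 ± 0.18), S100a9 (8.78 ± 0.17 and 8.71 ± 0.17) and S100a8 (8.79 ± 0.29 and 8.62 ± 0.29). Their summed linear signal was 993 to 3280 over the arrays titled GFP- and 286760 to 863895 over those titled GFP+. All 5 haematopoietic progenitor markers were higher in both (sums 103 to 156 against 1396 to 4789), among them Myb (5.49 ± 0.28 and 5.64 ± 0.28) and Kit (4.38 ± 0.21 and 4.34 ± 0.21). All 5 measured proliferation genes were higher in both (sums 147 to 210 against 1240 to 8361), with Mki67 at 5.61 ± 0.30 and 6.70 ± 0.30. Erythroid markers were higher for 3 of 5 in vehicle and 4 of 5 in odor pools (sums 234 to 498 against 686 to 5202), with Rhag at 4.19 ± 0.23 and 5.84 ± 0.23.

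Markers of other lymphoid and dendritic cells were called to different degrees. Natural killer markers were higher for 4 of 4 in both treatments (sums 60.2 to 82.6 against 168 to 710), with Nkg7 at 2.04 ± 0.40 and 2.78 ± 0.40. T cell markers were higher for 3 of 7 in vehicle and 2 of 7 in odor pools (sums 247 to 334 against 290 to 813); Cd3e had 1.97 ± 0.45 and 2.81 ± 0.45 and Cd3g 1.13 ± 0.20 and 1.29 ± 0.20, the latter at background in all 16 arrays. Plasmacytoid dendritic cell markers were higher for 5 of 5 in both (sums 7787 to 9493 against 10490 to 14864), with Ccr9 at 1.58 ± 0.25 and 1.89 ± 0.25. Most of these sums came from Tcf4, with log2 group means from 13.02 to 13.55. Plasma cell markers were higher for 3 of 7 in vehicle and 2 of 7 in odor pools (sums 2949 to 4477 against 5219 to 10293). Jchain had 5.61 ± 0.27 and 6.05 ± 0.27 and Xbp1 0.86 ± 0.14 and 0.77 ± 0.14. Xbp1, with log2 group means from 11.68 to 12.54, gave most of the plasma cell sums. Of the mature olfactory neuron list, 9 of 16 were lower in both (sums 2923100 to 3016180 against 2520320 to 2751840), among them Pde1c, Ano2, Slc24a4 and Gng13. The part of these cell types in the B lineage differences was not tested.

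**Figure D4:**
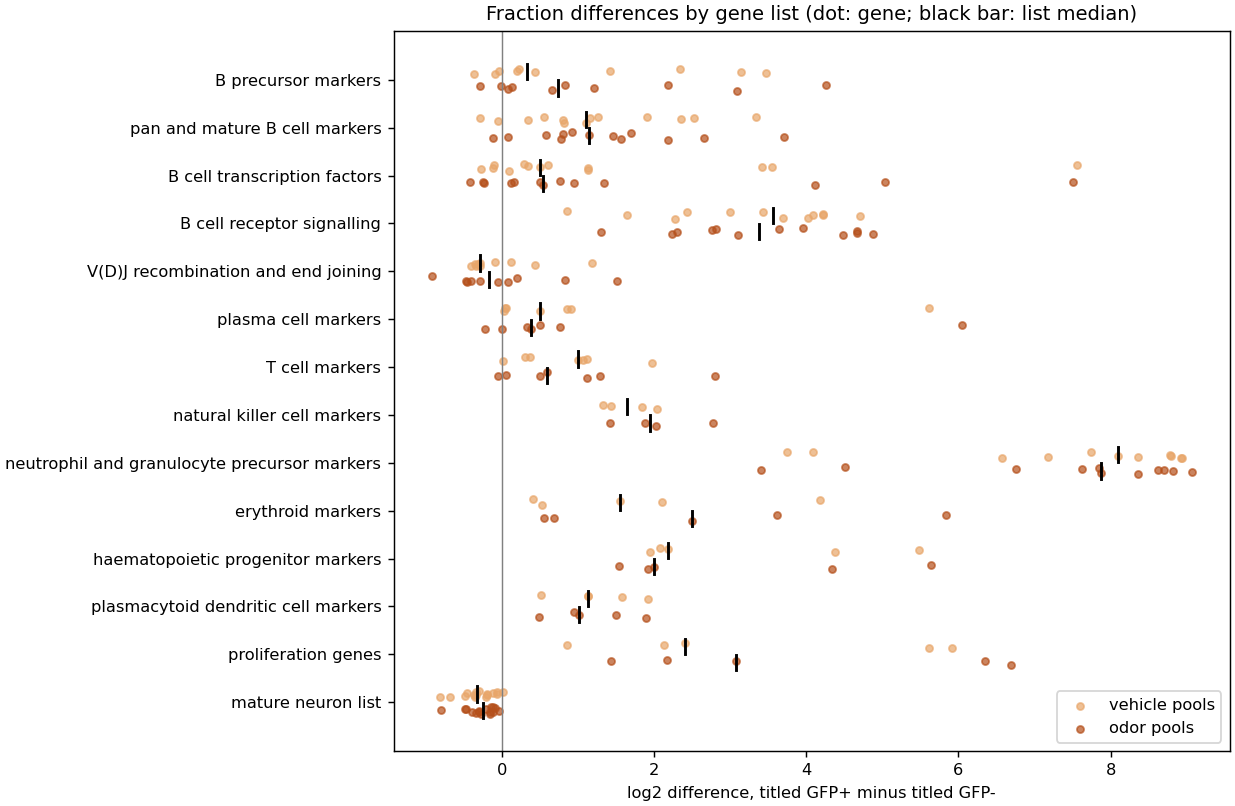
Log2 difference between arrays titled GFP+ and titled GFP- (x axis) of every measured gene of 14 lists (y axis), with a dot per gene, colour for treatment and a black bar for the list median. Neutrophil markers have medians of 8.10 and 7.88, and B cell receptor signalling genes have medians of 3.57 and 3.38. The B precursor and pan and mature B cell lists, which include the members, have medians from 0.33 to 1.15.

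Genes whose profile over the 16 arrays was most like that of the members were found by the root mean square distance in log2, after each gene's own mean was subtracted. For the mean profile of the mature-type members (SD over arrays 1.16) the nearest were Tnfrsf13c (0.312), Ltb (0.323), Cmah (0.326), Lbh (0.328) and Scd1 (0.341). For the mean profile of the precursor members (SD 0.371), which Vpreb3 shapes most, they were Nras (0.195), Alox15 (0.195), F3 (0.198), 2810408A11Rik (0.201) and Bfsp2 (0.202). All 10 distances were below the SD of the profile they were measured against. They are the smallest over all genes, so this was to be foreseen and is no test of likeness.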

How the data were processed

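Biotin-labelled cRNA from 50 to 100 ng of RNA per sample was hybridised to 16 Affymetrix arrays, per the labels. The submitters' processing notes name Affymetrix Expression Console, with which the authors made the deposited log2 signals. How these were normalized and corrected for background, and with which version, is not given in the sources used here. Of 28846 features, 19572 had 1 gene symbol, and the brightest feature of each gene was kept (19505 genes). Groups came from titles, and replicates are separate pools of 3 mice.

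Tests used limma 3.58.1 in R 4.3.3, two-sided, with a variance trend, Benjamini-Hochberg adjustment over all genes and a threshold of 0.05. Fractions were compared with pools as fixed blocks (residual degrees of freedom: 6), and treatments with the pool as a random block (correlation 0.164, with 12 degrees of freedom). Tested on data simulated for the vehicle fractions (19505 genes, 200 changed), the fit recovered 73.75, 95 and 100% of log2 changes of 1, 2 and 3, with 9 false calls. The simulated noise was independent, with 1 spread per gene for all arrays, no pool differences and far fewer changed genes than were called in the data. Member spreads were unequal (Cd79a in odor pools: SD 1.67 titled GFP+ and 0.23 titled GFP-). These rates therefore need not hold for the members. A bound sets the mean of arrays titled GFP+ against the control median of arrays titled GFP-. Where some arrays titled GFP+ are at background too, it rests in part on unmeasured levels.

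The members and the lists were chosen with earlier results of these data known. All members were named, up to 4 genes per list (largest mean difference among those called in both treatments), 5 nearest genes per profile, and S100a5; genes related to Cd79a beside these, and those under the other observations, were picked with their values in view. Promoters are RefSeq, GRCm38.p6.

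Same-numbered odor and vehicle arrays titled GFP- deviated together (0.198 to 0.279, 4 of 4 pairs over 0.1) and those titled GFP+ less evenly (0.0787 to 0.410, 3 of 4). Arrays limit precision by their number, and no 2 were duplicates (smallest SD of differences 0.359). Alternatives were other blocks, scalings, a filter on dim genes, a floor at background, the feature rule, the variance trend and leaving out pools.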

Additional observations from a re-analysis of the deposited data

Results flagged for a closer look

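Of 32 groups of 4 values, 5 held a value far from the other 3, where chance flags about 1 in 20 groups. In 3 of them it was the odor array titled GFP+ of pool 1: Cd79a at 11.06 (others 7.50 to 7.89), Cd79b at 8.64 (others 6.38 to 6.72) and Cd22 at 7.26 (others 3.88 to 4.34). The other two were at or near background: Cd79b in vehicle pool 4 titled GFP- at 3.85 (others 4.22 to 4.29) and Igll1 in odor pool 3 titled GFP+ at 5.12 (others 5.40 to 5.46).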

How the results depend on the processing

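Cd79a and Cd79b kept their direction and their calls under all 19 alternatives in each treatment. Over all members, 141 of 149 vehicle and 144 of 149 odor fraction differences kept their direction; 11 calls were lost and 2 gained in vehicle, 3 lost and 7 gained in odor pools. The number of members called higher was 2 in vehicle pools, against 4, with housekeeping centring and with values raised to the control median, and 2 to 5 when single pools were left out. In odor pools it was 2, against 4, with values raised to the control median and with the dimmest 30% of genes left out, which removed 3 members from the test, and 3 to 5 without single pools; it was 5 with the random pool block and the replicate block and 6 with mature neuron centring. Housekeeping centring called 1 member (Vpreb1) lower in each treatment. With values raised to the control median the Ms4a1 vehicle difference was -0.15, that of Ms4a1 in odor pools 0.046 (adjusted p = 0.687) and the precursor gap in vehicle pools -0.029. Member values above the 75th percentile of the controls, a limit chosen after seeing the data, as was the gap without Vpreb3, numbered 9 in odor and 5 in vehicle arrays titled GFP+ and 0 in the odor arrays titled GFP-; above the 95th they were 1, 1 and 0.

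Over all genes, calls lower in arrays titled GFP+ were fewer without vehicle pool 1 (1623 in vehicle pools) and without odor pools 1 or 3 (1632 and 1655 in odor pools), against 2658 and 2860. With the replicate block, odor minus vehicle in arrays titled GFP- called 15 genes against 0, none of them members. In the fraction fits this block took the place of the pool block. Of the member calls it changed only that of Vpreb3 in odor pools (limma, adjusted p = 0.0391). Rag1 had no value, so leaving it out was not run. Causes were not tested. Background limits what is seen: a member at the control median can rise without a change in its signal, and most member values lay within the spread of the negative controls.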

Other observations

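Some B lineage factors are also factors of the olfactory neuron, and their signals did not follow the members. Ebf1, first known in neurons as Olf-1, had 16.55 to 16.95 in all 16 arrays, with fraction differences of -0.11 ± 0.05 in vehicle (limma, adjusted p = 0.142) and -0.25 ± 0.05 in odor pools (adjusted p = 0.00398). The E protein gene Tcf3 (9.69 to 10.17) and Foxo1 (8.67 to 9.54) were above background in all 16 arrays and passed in neither treatment.

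Further genes of the precursor stage were at the floor. Rag2, the partner of Rag1, lay between 3.27 and 4.41 and Vpreb2 between 3.31 and 4.42, both at background in all 16 arrays and called in neither treatment. Dntt, which encodes the terminal transferase, was also at background throughout, between 2.58 and 4.20, with a difference of 0.44 ± 0.19 in vehicle (limma, adjusted p = 0.107) and 0.83 ± 0.19 in odor pools (adjusted p = 0.00501). Plasma cell genes diverged: Jchain had 9.68 to 11.09 in arrays titled GFP+ and 4.33 to 5.78 in those titled GFP-, while Mzb1 (3.43 to 4.63) and Tnfrsf17 (3.55 to 4.84) were at background in all 16 arrays.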
